A study of Homo sapiens with 4 samples.

Results

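Glucose uptake, glycolysis and the response to low oxygen were examined through 10 genes: SLC2A1, SLC2A3, HK1, HK2, PFKFB3, PFKFB4, LDHA, PKM, VEGFA and HIF1A. Every H3K27ac region that the authors' deposited table assigns to one of these genes was taken, which gave 82 of its 91107 distinct regions. H3K27ac is histone H3 acetylated at lysine 27, a mark of active promoters and enhancers, and it was mapped by chromatin immunoprecipitation and sequencing. The cells were A375, an established human melanoma line grown in DMEM with serum, and the line is the only model in the series. There were 4 libraries: 2 of cells kept in the vehicle, isopropanol, and 2 of cells kept in 1 mM octanoate, a medium-chain fatty acid, for 48 hours in either case. The labels do not say whether the 2 libraries of a group came from separate cultures.

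Glucose enters cells through the carriers of the SLC2A family, is phosphorylated by hexokinases and passes through glycolysis to pyruvate, which lactate dehydrogenase A can turn into lactate. When oxygen is low, the transcription factor HIF-1, whose oxygen-regulated subunit is HIF1A, is stabilised, binds short DNA motifs called hypoxia response elements and raises transcription of carriers, glycolytic enzymes and the angiogenic factor VEGFA. Melanoma cells are known for a high rate of glycolysis even when oxygen is present.

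The authors' deposited table gives, for each region, 1 mean level over the libraries in normalized units, 1 log2 fold change with its standard error, and p-values, so values per library and depth are unknown. Its header does not name the numerator of the fold change, and changes are therefore called positive or negative. Positions are on the hg38 build and counted from 1. A mark carried by more cells and more mark per cell cannot be told apart in such bulk chromatin. In the authors' deposited table, regions with a mean level of at most 18.4 carry no adjusted p-value, and this held for 46 of the 82 regions. As a check of the labelled cell type, SOX10, PMEL and MITF of 6 melanocyte lineage genes, and AXL, NGFR and EGFR of 3 genes of dedifferentiated melanoma, had a region at the start in the authors' deposited table, with mean levels from 97.6 to 774 apart from EGFR at 50.5. MLANA, TYR and DCT, which define pigment-producing cells, had none at the start. Among 4 markers of other cell types, EPCAM had a region at its start with a mean level of 50.5 in the authors' deposited table, and PTPRC, PECAM1 and KRT5 had none there. Away from the start, regions assigned to PTPRC, PECAM1, EPCAM and KRT5 reached levels of 408, 164, 144 and 55.8 in the authors' deposited table. Those of MLANA, TYR and DCT reached 48.5, 32.0 and 6.79, so the check rests on starts alone.

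Of the 36 regions of the 10 genes that carry an adjusted p-value, 0 were called at a value under 0.05, while the authors' deposited table calls 1.67% of all such regions. At an unadjusted p-value under 0.05 the authors' deposited table has 3 of the 36 regions (8.33%), beside 18.4% of all regions that carry an adjusted one. At starts it was 1 of 9, beside 19.2% in the whole of the authors' deposited table. One more region, at VEGFA, passed the unadjusted limit without carrying an adjusted value. At a share of 1.67%, 36 regions would hold hardly any calls, so the count of 0 does not set these genes apart. The differences in the unadjusted shares were not tested.

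The direction of change was mostly positive in these genes and in the whole table alike. Among the 36 regions, the authors' deposited table has 33 positive and 3 negative, with a median log2 fold change of 0.31, beside 87.3% positive and a median of 0.32 over all regions with an adjusted p-value. At gene starts, meaning a distance of 0 in the authors' deposited table, all 9 regions of the 10 genes were positive with a median of 0.31, although 6 of the 9 fell below 0 once 0.32, the median of all regions with an adjusted p-value, was subtracted. Over every start region of the authors' deposited table, 97.7% were positive, the median was 0.36 and calls made up 0.86% of those with an adjusted p-value, beside 0 of 9 here. The 73 regions elsewhere had a median of 0.28 and 55 positive values in the authors' deposited table, against 0.25 and 70.5% for all regions elsewhere. Of those 73 regions, 27 carried an adjusted p-value and 0 were called, beside 1.97% of all such regions elsewhere in the authors' deposited table.

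**Figure D1:**
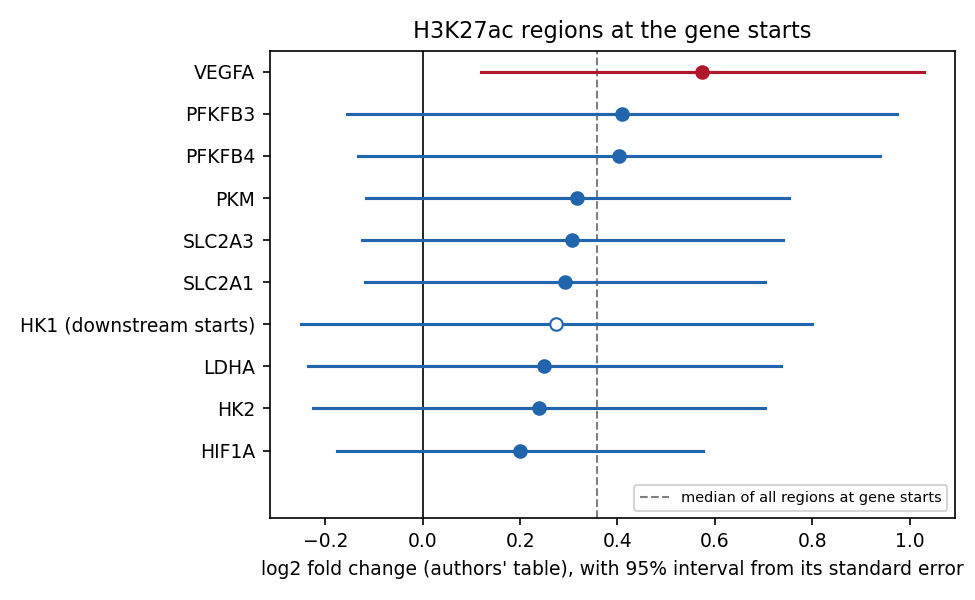
Log2 fold change of the H3K27ac region at each gene start (x axis; points with 95% intervals from the authors' standard errors; genes on the y axis). VEGFA (red, 0.57) is the only interval that does not cover 0, the open point is the HK1 region over downstream starts (0.27), and the dashed line is the median of all regions at starts (0.36).

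The promoter sequences of the members were searched for the core of the hypoxia response element, because HIF-1 is known to act on several of these genes. RefSeq promoter windows (250 bases before to 50 after a start, GRCh38.p14) were matched for 8 of the 10 genes, with 18 windows in all. SLC2A3 and VEGFA had no entry. The letters ACGTG and GCGTG were searched on both strands; the palindrome CACGTG, an E-box, holds ACGTG on both strands. Either core was found in 12 of the 18 windows, against 48.4% of all 35116 windows. Of the 13 member windows that overlap an H3K27ac region of the authors' deposited table, 11 held either core, against 60.5% of all such windows. A window of a gene with several starts can overlap the next, so these windows are not independent, and a match is a description of letters and not of binding.

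ACGTG was in 4 of the 18 member windows (22.2%), beside 21.4% of all windows, so its share does not set these genes apart. CACGTG was in 3 (16.7%), beside 7.26%, and GCGTG in 11 (61.1%), beside 36.5%. These differences were not tested. The stretches that follow are all those with ACGTG upstream of a start, which fall in LDHA, HK2 and PFKFB3. The GCGTG stretches of the first PFKFB3 start and of PFKFB4 are added, since these 4 enzymes are known HIF-1 targets. Stretches with GCGTG alone before the second starts of HK2 and LDHA, a start of HK1 and the first start of HIF1A are not printed. Those printed are read 5′ to 3′ on the gene's strand. Capitals mark the searched letters on either strand.
LDHA, first start, chr11:18394366-18394395, plus strand, 197 to 168 bases before it: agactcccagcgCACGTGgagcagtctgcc
LDHA, first start, chr11:18394464-18394506, plus strand, 99 to 57 bases before it: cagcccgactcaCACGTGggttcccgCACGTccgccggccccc
HK2, first start, chr2:74833886-74833914, plus strand, 241 to 213 bases before it: agccacggaccaCACGTcccatctcaggc
HK2, first start, chr2:74834060-74834095, plus strand, 67 to 32 bases before it: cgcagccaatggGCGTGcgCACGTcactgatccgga
HK2, second start, chr2:74834964-74834993, plus strand, 206 to 177 bases before it: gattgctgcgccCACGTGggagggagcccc
HK2, second start, chr2:74835009-74835038, plus strand, 161 to 132 bases before it: ttccggcgagagCACGTGgagagaatcgtg
PFKFB3, first start, chr10:6144741-6144769, plus strand, 180 to 152 bases before it: ggcggcccggccCACGCcccggcttcccc
PFKFB3, second start, chr10:6202812-6202841, plus strand, 120 to 91 bases before it: caccctcctcccCACGTGgaagggggctgg
PFKFB4, chr3:48556953-48556981, minus strand, 178 to 150 bases before the start: tgagttgggcatGCGTGgtcggaggccgg

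LDHA thus carries ACGTG at 3 places before its first start, 2 of them as CACGTG, and the second HK2 start has CACGTG at 2 places. All these stretches but 1 lie inside the start region of their gene, and the exception is the second start of PFKFB3, whose CACGTG lies just before the region that begins there. The LDHA and HK2 start regions, whose windows had most matches, had 0.25 and 0.24 in the authors' deposited table. PFKFB3 and PFKFB4, with 1 GCGTG core each before the start within the region, had 0.41 and 0.40 there. With standard errors from 0.24 to 0.29, these 4 values differ by less than their errors. In the other windows within regions the core was GCGTG alone, as in SLC2A1, PKM and the first HIF1A start, or absent, as in the second HIF1A start. The start regions of SLC2A1, PKM and HIF1A had 0.29, 0.32 and 0.20 in the authors' deposited table. VEGFA, with 0.57, had no window to search. A relation of matches to fold change was not tested.

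The glucose carrier SLC2A1 had the broadest marked domain of the 10 genes. It encodes GLUT1, the carrier of basal glucose uptake in many tissues, and lies on chromosome 1 from 42925353 to 42958868 on the minus strand. Its start region (42931462 to 42960063) was 28602 bases wide with a mean level of 828 in the authors' deposited table, wider than 99.9% of all start regions. It ran downstream over most of the gene body, and the authors' deposited table gives it a log2 fold change of 0.29 ± 0.21 (the authors' standard error, as throughout; adjusted p-value 0.409). A second strong SLC2A1 region (42922804 to 42925756), across the far end of the gene, had a mean level of 81.6 and 0.45 ± 0.28 (adjusted p-value 0.351) by the authors' deposited table. The other 8 regions of SLC2A1 had mean levels from 4.30 to 41.1 and log2 fold changes from -0.57 to 0.72 in the authors' deposited table, each with a 95% interval that covered 0.

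SLC2A3 encodes GLUT3, a carrier with high affinity for glucose that is best known from neurons, and lies on chromosome 12 from 7919230 to 7936187 on the minus strand. Its start region (7932807 to 7939229) had a mean level of 166 and a log2 fold change of 0.31 ± 0.22 (adjusted p-value 0.408) by the authors' deposited table. Of 4 further regions, all upstream, 2 were well above the level limit: 1 at 21874 bases from the start had a level of 89.5 and 0.38 ± 0.24, and 1 at 33251 bases had 61.3 and 0.28 ± 0.27 in the authors' deposited table. The start and these 2 upstream regions of SLC2A3 thus differed from each other by less than any of their standard errors.

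Hexokinases make glucose 6-phosphate, the first step of glycolysis. HK1 is the form most tissues share, and its gene spans 132 kb of chromosome 10 (69270000 to 69401882, plus strand). It was the only gene of the 10 with no region at distance 0 in the authors' deposited table. Its strongest region (69315626 to 69322496; mean level 124, log2 fold change 0.27 ± 0.27, adjusted p-value 0.529) lay 45642 bases downstream of the start used in the authors' deposited table. That region overlaps the promoter windows of 3 of the 7 HK1 starts in the RefSeq table of GRCh38.p14, so it covers starts that the distance of 0 does not count. The other 3 regions of HK1 had mean levels of at most 13.0 and log2 fold changes of -0.06, 0.21 and 0.71 in the authors' deposited table, with no adjusted p-value.

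HK2, the inducible hexokinase and a known HIF-1 target, lies on chromosome 2 from 74834127 to 74893359 on the plus strand. All 6 HK2 regions have positive values by the authors' deposited table, and 3 of them, the start and those at 13255 and 15739 bases, fell below 0 after centring on the common median. The start region (74833275 to 74837439; mean level 111) had 0.24 ± 0.24 and an adjusted p-value of 0.536 by the authors' deposited table. Distances at HK2 are counted from 74835170, the later of its 2 RefSeq starts, which the authors' deposited table uses. The first intragenic region, 7259 bases downstream, had a level of 77.6 and 0.42 ± 0.24 in the authors' deposited table. A region 28895 bases downstream of the HK2 start (74864065 to 74866168; mean level 38.7) had 0.63 ± 0.32 in the authors' deposited table, where the unadjusted p-value is 0.0498 and the adjusted 0.271. The other 3 regions of HK2 ran from 0.05 to 0.75 in the authors' deposited table.

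PFKFB3 and PFKFB4 encode enzymes that make and break fructose 2,6-bisphosphate, the activator of phosphofructokinase 1, and both are known HIF-1 targets. Their chromatin was arranged in contrasting ways. PFKFB3 (chromosome 10, 6144921 to 6326637, plus strand) had 23 regions over a gene of 182 kb, of which 19 lay in the gene body apart from the start. The PFKFB3 start region (6144195 to 6146307) was only 2113 bases wide, with a mean level of 51.3 and a log2 fold change of 0.41 ± 0.29 (adjusted p-value 0.401) by the authors' deposited table. It held 9.74% of the summed level of the gene's regions. The strongest PFKFB3 region elsewhere (6202982 to 6205793; mean level 53.8, 0.47 ± 0.32, adjusted p-value 0.387 by the authors' deposited table) begins 50 bases downstream of a second RefSeq start of the gene.

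Of the 22 regions of PFKFB3 away from its start, 15 were positive and 7 negative in the authors' deposited table, with a median of 0.18 and extremes of -1.08 and 0.65. The negative extreme, -1.08 ± 1.13, belongs to a region with a mean level of 2.00 in the authors' deposited table and has a 95% interval from -3.29 to 1.13. Among PFKFB3 regions with an adjusted p-value, the most positive was 0.64 ± 0.38, 2486 bases upstream of the start, and the most negative -0.22 ± 0.42, 154625 bases downstream, in the authors' deposited table.

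PFKFB4 (chromosome 3, 48517684 to 48563136, minus strand) had 2 regions, and its start region (48554895 to 48568417) held 99.4% of their summed level. That region had a mean level of 536 over 13523 bases and a log2 fold change of 0.40 ± 0.27 (adjusted p-value 0.385) by the authors' deposited table. It also overlaps the start of UCN2, a stress peptide gene, and is listed for COL7A1 as well, so its value is not that of PFKFB4 alone. The second PFKFB4 region, 7022 bases downstream, had a mean level of 3.25 and -0.13 ± 0.93 in the authors' deposited table. The PFKFB4 start of the promoter window (48556803) and the one that distances are counted from (48556891) both lie inside the gene bounds given above.

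LDHA and PKM act at the end of the pathway: PKM, pyruvate kinase, makes pyruvate, and LDHA reduces it to lactate. LDHA (chromosome 11, 18394563 to 18408425, plus strand) had 2 strong regions and no weak ones. Its start region (18393695 to 18401310; mean level 155) had a log2 fold change of 0.25 ± 0.25 (adjusted p-value 0.537), and the other (18381210 to 18387180; mean level 116), 7382 bases upstream, 0.37 ± 0.25 (adjusted p-value 0.386), by the authors' deposited table. PKM (chromosome 15, 72199029 to 72231591, minus strand) had a start region (72221922 to 72233388; mean level 384) with 0.32 ± 0.22 (adjusted p-value 0.396) by the authors' deposited table. A neighbouring PKM region 3438 bases upstream (72234825 to 72239833; mean level 182) had 0.32 ± 0.22 as well (adjusted p-value 0.389) by the authors' deposited table. The most negative fold change among the 82 regions was that of a PKM region with a mean level of 3.35 (-1.39 ± 0.91) in the authors' deposited table, and its 95% interval reached 0.39.

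VEGFA, the secreted factor that drives growth of blood vessels, had the most positive start region of the 10 genes. Its most positive region elsewhere (1.22) was nearly matched by one at HIF1A (1.21), at mean levels of only 9.51 and 5.29 in the authors' deposited table. VEGFA lies on chromosome 6 from 43770211 to 43786487 on the plus strand. Its start region (43769254 to 43776302; mean level 187) had a log2 fold change of 0.57 ± 0.23, a ratio of 1.49, with a 95% interval from 0.12 to 1.03 in the authors' deposited table. Unadjusted, its p-value was 0.0133, and the adjusted value of 0.172 was the smallest of the 36 in the authors' deposited table. This change exceeded that of 83.1% of all start regions in the authors' deposited table, and the next gene of the 10, PFKFB3, lay at 0.41.

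The other marked chromatin of VEGFA lay almost wholly past the end of the gene, where 8 of its 10 regions fall within 109 kb of the start. A region 27530 bases downstream of the VEGFA start (43797743 to 43800410; mean level 47.8) had 0.64 ± 0.29 in the authors' deposited table (p-value 0.0278 unadjusted, 0.221 adjusted). Another, 42607 bases downstream (43812820 to 43813738), had the most positive value of all 82 regions, 1.22 ± 0.57 with an unadjusted p-value of 0.0318, at a mean level of only 9.51 in the authors' deposited table. The remaining 6 regions beyond the end of VEGFA had log2 fold changes from -0.19 at 108629 bases to 0.90 at 36921 bases in the authors' deposited table, all with 95% intervals that covered 0. Upstream, 1 VEGFA region at 28525 bases had 0.88 ± 0.59 in the authors' deposited table.

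Over its 10 regions VEGFA had a median of 0.56 with 9 positive, against 0.26 over the 72 regions of the other 9 genes, with 55 positive, by the authors' deposited table. An unadjusted p-value under 0.05 was held by 4 of the 82 regions, beside 8189 of all 91107, in the authors' deposited table. Of these 4, 3 were those of VEGFA, 1 of them at a mean level of only 9.51, and 1 that of HK2. This difference between VEGFA and the rest was not tested, since all regions come from the same 4 libraries.

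HIF1A itself, the oxygen-regulated subunit of HIF-1, is controlled mainly through protein stability. Its gene (chromosome 14, 61695513 to 61748258, plus strand) carried a broad start region (61694212 to 61705390; mean level 354) with a log2 fold change of 0.20 ± 0.19 (adjusted p-value 0.523) by the authors' deposited table. That was the smallest fold change of the 9 start regions, above only 18.1% of all start regions in the authors' deposited table, and it had the smallest standard error of the 9. The strongest HIF1A region elsewhere (61659973 to 61664314), 31226 bases upstream, had a mean level of 93.1 and 0.37 ± 0.25 (adjusted p-value 0.393) by the authors' deposited table. Over the 15 regions of HIF1A away from its start, 13 were positive, with a median of 0.38 and extremes of -0.23 ± 0.77 and 1.21 ± 0.76, both at mean levels under 10, in the authors' deposited table.

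**Figure D2:**
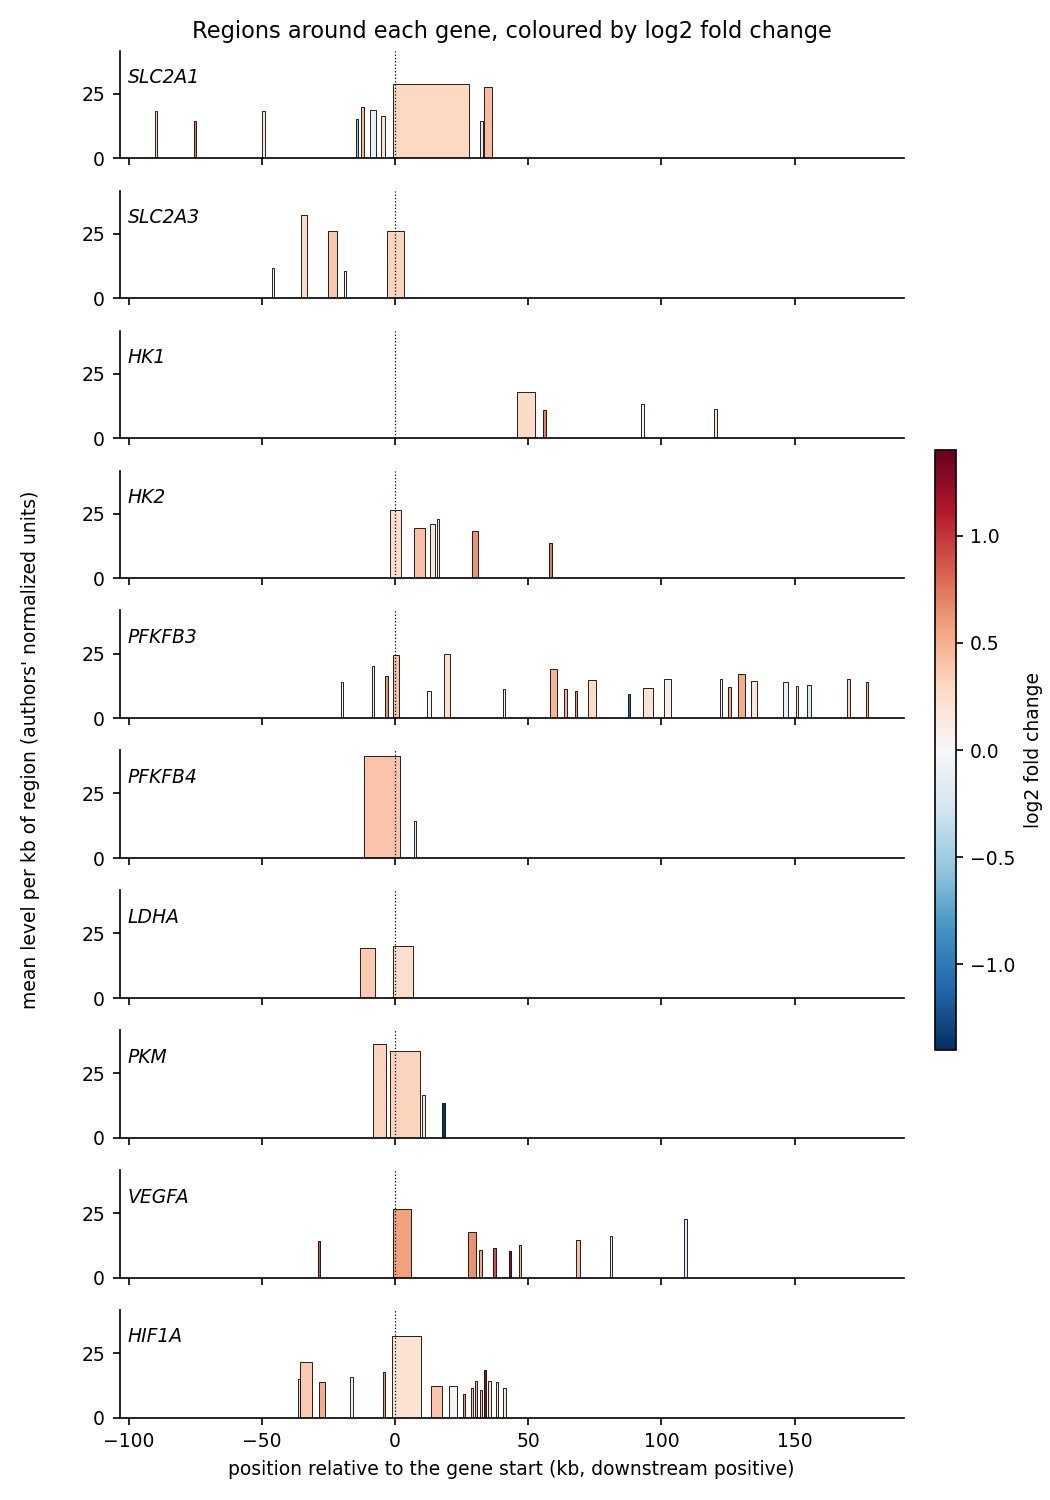
Each panel shows the regions of 1 gene by position relative to its start (x axis, kb, downstream positive); bar height is the mean level per kb of region in the authors' normalized units, bar width the region (drawn at least 0.8 kb wide) and colour the log2 fold change. SLC2A1 has a domain of 28.6 kb over its body, PFKFB3 a scatter of 23 regions, HK1 no bar at 0, and VEGFA its regions beyond the gene end from 27.5 kb on.

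Per kb of region, mean levels at the starts, computed from the authors' deposited table, were lowest for LDHA (20.3) and highest for PFKFB4 (39.7). PKM (33.5), HIF1A (31.6) and SLC2A1 (28.9) lay between, followed by HK2 (26.5), VEGFA (26.5), SLC2A3 (25.9) and PFKFB3 (24.3). The median over all start regions of the authors' deposited table was 25.3 per kb. These are levels and not differences, and with no value per library it cannot be said which neighbours in this order differ. Of the 9 start regions, 8 were wider than the median of 3186 bases over all regions at starts, and PFKFB3 was narrower. The order by level per kb and the order by fold change were unlike: HIF1A came after PFKFB4 and PKM by level and last by fold change.

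**Figure D3:**
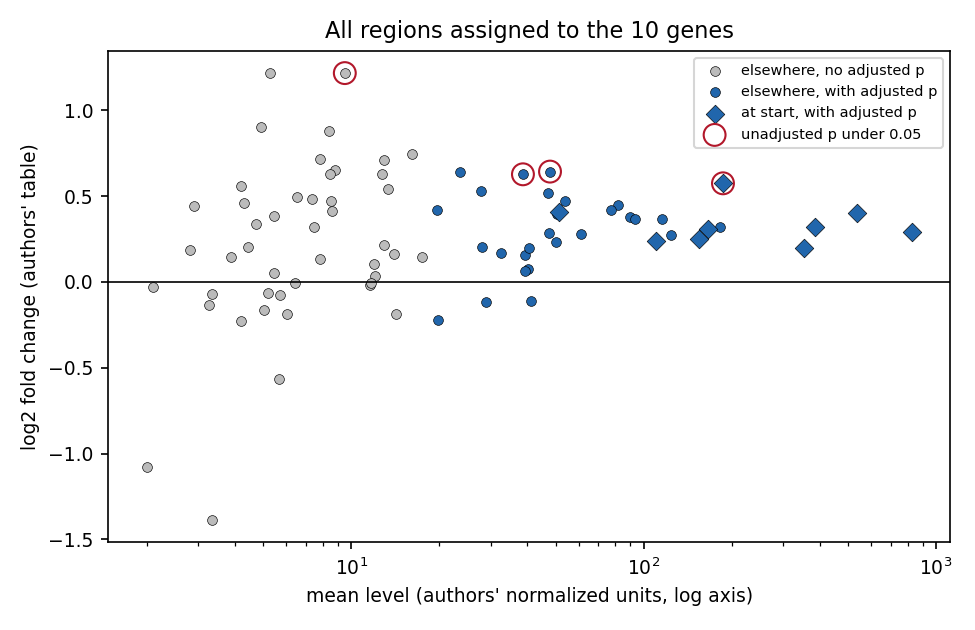
Log2 fold change (y axis) against mean level (x axis, log scale, authors' normalized units) for the 82 regions; diamonds are regions at starts, circles regions elsewhere, grey regions have no adjusted p-value and red rings mark an unadjusted p-value under 0.05. Regions above a mean level of 100 lie between 0.20 and 0.57, and the values spread from -1.39 to 1.22 among the low regions.

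The spread of fold changes followed the level. The authors' deposited table has standard errors of 0.19 to 0.29 for the 9 start regions and of 0.41 to 1.19 for the 46 regions without an adjusted p-value. Even the 95% intervals of the extremes at starts, VEGFA (0.12 to 1.03) and HIF1A (-0.18 to 0.58), overlapped. After subtraction of that median of 0.32, 3 start regions lay above 0 (VEGFA 0.25, PFKFB3 0.09, PFKFB4 0.08) and 6 below, and 0 of the 36 passed the limit of 0.05 after the adjusted p-values were recomputed from the fold changes and errors of the authors' deposited table.

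Other genes of the same pathways were read from 4 lists. Of 21 genes of glycolysis and lactate transport, 41 regions carried an adjusted p-value, 36 positive with a median over the 41 of 0.27, and 0 were called in the authors' deposited table, while 5 (12.2%) had an unadjusted p-value under 0.05. Of the 41, the authors' deposited table has the most positive at the start of SLC16A3, the lactate exporter MCT4 (0.83 ± 0.32, adjusted p-value 0.144). The most negative lay 473858 bases from SLC16A7, the lactate and pyruvate carrier MCT2 (-0.62 ± 0.30, adjusted p-value 0.243), by the authors' deposited table. Relatives of the carriers, hexokinases, PFKFB enzymes and VEGF ligands, with regions at 16 of 19 genes, had 40 such regions, 37 positive with a median over the 40 of 0.37, and 3 positive calls in the authors' deposited table.

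These 3 calls were 2 regions at SLC2A13, a proton-coupled inositol carrier (chromosome 12, 40011458 to 40019506, 1.09 ± 0.23, and the start region 40102354 to 40108900, 0.82 ± 0.24), and 1 at VEGFC, a growth factor for lymphatic vessels (chromosome 4, 176632566 to 176638031, 154697 bases from its start, 0.99 ± 0.23), in the authors' deposited table. The adjusted p-values were 0.00156 and 0.0412 for SLC2A13 and 0.00787 for VEGFC in the authors' deposited table. Among the 40 regions, the most negative, 107664 bases from SLC2A12, a further glucose carrier gene, had -0.26 ± 0.38 in the authors' deposited table.

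Among 14 genes of oxygen sensing by the HIF pathway, 49 regions carried an adjusted p-value, 38 positive with a median over the 49 of 0.39, and 4 were called, all positive, in the authors' deposited table. They were 3 regions assigned to CUL2, the scaffold of the VHL ubiquitin ligase, between 30442 and 82220 bases from its start (0.90, 0.96 and 1.25) and 1 assigned to ARNT2, a partner of HIF alpha subunits, 172719 bases from its start (0.81 ± 0.21), in the authors' deposited table. The most negative of the 49 was a region 157640 bases from EGLN3, an oxygen-sensing prolyl hydroxylase (-0.46 ± 0.36), in the authors' deposited table. Of 24 other hypoxia-induced genes, 72 regions carried an adjusted p-value, 65 positive with a median over the 72 of 0.38, and 1 was called in the authors' deposited table, 26 bases from the start of MXI1, an antagonist of MYC (0.87 ± 0.24, adjusted p-value 0.0300). The extremes of these 72 regions both belonged to CA12, a carbonic anhydrase, with 1.09 ± 0.42 and -0.31 ± 0.39 in the authors' deposited table.

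The shares called were 7.50% for the relatives, 8.16% for oxygen sensing, 1.39% for hypoxia targets and 0% for glycolysis, beside 1.67% over all regions of the authors' deposited table that carry an adjusted value. Unadjusted p-values under 0.05 made up 27.5% for the relatives (11 of 40), 32.7% for oxygen sensing (16 of 49) and 23.6% for hypoxia targets (17 of 72), beside 12.2% for glycolysis and 18.4% over all such regions, by the authors' deposited table. These differences between lists were not tested. Regions of 1 gene can lie close together and are not replicates, as with the 3 at CUL2. None of the 8 calls passed after subtraction of the common median, with adjusted p-values from 0.153 to 0.8 recomputed from the values of the authors' deposited table. This subtraction takes out any shift shared by most regions, be it of scaling or of the mark itself. With no value per library, these cannot be told apart.

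**Figure D4:**
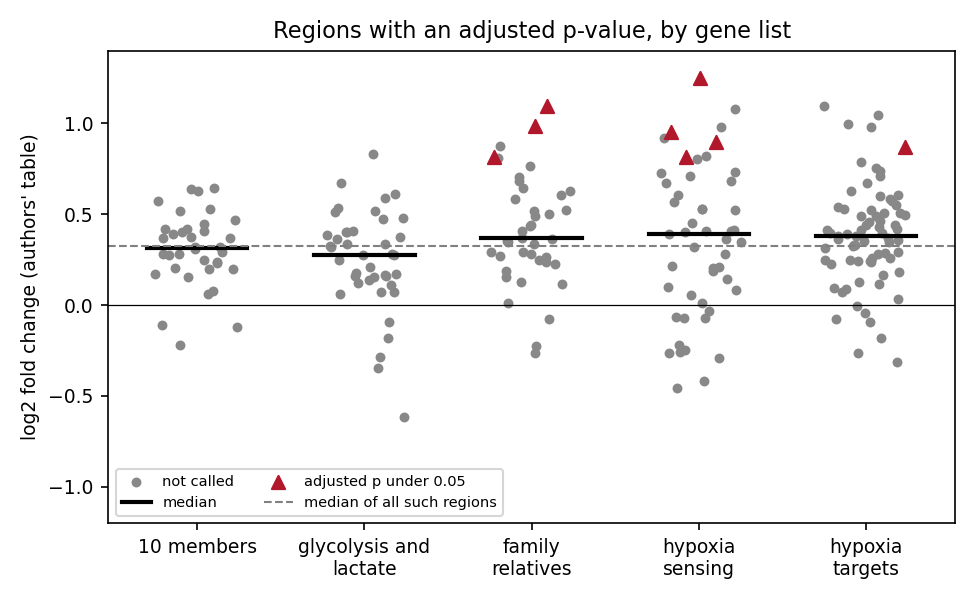
Log2 fold change (y axis) of regions with an adjusted p-value for the 10 members and 4 lists of related genes (x axis; points are regions, spread sideways at random; bars are list medians; red triangles are calls at an adjusted p-value under 0.05). The 10 members and the glycolysis list have 0 calls, and the dashed line is the median of all such regions (0.32).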

How the data were processed

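H3K27ac chromatin of A375 cells was sequenced in 4 libraries, grouped by the treatment in the labels. Trim Galore, cutadapt, FastQC, Bowtie2, Picard, MACS2, featureCounts, DESeq2 and bedtools 2.29.1 and the build hg38 appear in the submitters' processing notes, without roles. The data are 1 table of the authors' comparison. Per the file headers it holds a mean normalized signal per region, whose scaling is not given in the sources used here, a log2 fold change with its standard error, a score (the statistic), a p-value, an adjusted p-value and a distance to the assigned gene. It has 0 columns of single libraries, so that library depth and its precision are unknown.

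Lines repeating a region for another gene were merged for counts over all regions. Taken as 0-based, region starts gave the same gene start from both sides for 100% of 5815 genes with regions on both sides, and 0% if taken as 1-based, so 1 was added to each start. Gene bodies and promoter windows came from RefSeq tables of GRCh38.p14, the build named hg38, and all 10 symbols matched. An adjusted p-value of 1 was read as not computed. The authors' deposited two-sided test was described as it stands, and no fit of libraries was made. Intervals (95%) are the fold change with the normal quantile times its deposited standard error. For centring, the median of 0.32 over regions with an adjusted p-value was subtracted, and normal p-values were adjusted by the Benjamini-Hochberg method over the same regions. Named regions of each gene were those at distance 0, those with an unadjusted p-value under 0.05, and elsewhere the strongest, the most positive and the most negative; named genes of the lists were those with a call and the 2 extremes. The members and lists were chosen with earlier results of these data known. Adjustment and centring were tested on simulated data whose changes were larger than those of any region of the 10 genes. That test does not show whether smaller changes are kept after centring. Python 3.11.15, pandas 2.3.3, NumPy 2.4.6 and SciPy 1.17.1 were used.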

Additional observations from a re-analysis of the deposited data

How the results depend on the processing

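The count of 0 calls among the regions of the 10 genes was the same at an adjusted p-value under 0.01, with fold changes required to reach 1 in size on the log2 scale, with adjustment over all distinct regions and after centring. Over all regions, the 608 calls became 128, 319, 250 and 45 under these settings in the same order. The limit of 0.01 and the size filter can only remove calls, so for the 10 genes their count of 0 was fixed in advance. Of the 8 calls in the lists of related genes, 3 passed with adjustment over all distinct regions and 0 after centring. Of the 36 regions that carry an adjusted p-value, 20 lay below 0 after centring, against 3 as deposited. Among the 20 were the start regions, or for HK1 the strongest region, of these genes: SLC2A1 -0.032, SLC2A3 -0.016, HK1 -0.049, HK2 -0.084, LDHA -0.074, PKM -0.0061 and HIF1A -0.12, by construction, since their fold changes were under the median subtracted. The 4 regions with an unadjusted p-value under 0.05, at VEGFA and HK2, and the start regions of PFKFB3 and PFKFB4 stayed positive. This too was by construction, since their fold changes were above the median subtracted. The median at starts ran from 0.30 to 0.31 and the median elsewhere from 0.22 (without VEGFA) to 0.34 (without PFKFB3) when each gene was left out in turn. Both were the same with a distance limit of 1000 bases or a mean level of at least 10. No region away from a start lay within 1000 bases of it, so the distance limit changed neither set. All 9 start regions had levels above 10, so the level limit could alter only the median elsewhere, then taken over 39 regions. The HK1 region over downstream RefSeq starts was also counted as a start region beside the 9, a choice made after seeing the data. The medians over the 10 regions at starts and the 72 elsewhere were then 0.30 and 0.28.

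No paired analysis was possible because libraries have no values of their own in the authors' file. Leaving out each library in turn was not run for that reason either. Standard errors reached 1.19 among regions of low level.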
